A study of Mus musculus with 24 samples.

Results

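The ribosome precipitate of day 18 was compared with that of day 11 in the dentate gyrus of mice in which cells of the neural stem cell lineage carry tagged ribosomes. The comparison rests on the 8 precipitate (IP) libraries that the labels place at these days, of 24 libraries in all, with 4 libraries of day 18 and 4 of day 11. Each day held 2 libraries of running mice, whose wheel turned, and 2 of sedentary mice, whose wheel was blocked. Every group came from female C57BL6 mice with the tamoxifen-inducible Cre transgene Tg(Nes-cre/ERT2) and an Rpl22 allele that gains a haemagglutinin tag after recombination (RPL22HA/WT). The mice were 9 to 11 weeks old when they received tamoxifen on 5 days, and the labels give 18 or 11 days as the treatment time. Sedentary libraries are called c and d at day 18 and a and b at day 11, and running libraries carry the same letters. The Cre is driven by Nestin regulatory sequence, so it marks stem cells and whatever descends from them, and any other cell in which that sequence is active. The number of mice behind a library is not among the labels, and separate mice for separate libraries are not stated. The p-values below therefore measure the spread between these libraries, which may be technical.

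In the dentate gyrus, stem cells give rise to dividing intermediate progenitors, these to neuroblasts, and these to granule neurons that grow dendrites and axons, receive synapses and join the circuit over weeks. Dividing cells express DNA replication and mitosis genes and make histone mRNA, newborn neurons express Dcx and then Calb2, and mature granule neurons express Calb1. Ribosomes of a cohort that was tagged at the stem cell stage carry RNA of whichever stages its descendants occupy at the time of sampling. The question put to these libraries was which RNAs of the precipitate changed over this early step of the cohort.

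The labels assign the precipitate to immature neurons, and it held their markers together with those of other stages. Dcx, a microtubule protein of migrating neurons, averaged 129.6 ± 50.6 TPM in the precipitate of day 18 and 137 ± 44.1 TPM in that of day 11 (SD, n = 4 each). In the unprecipitated tissue RNA (input) it averaged 16.1 ± 0.836 TPM at day 18 and 14.1 ± 0.314 TPM at day 11. Prox1, the transcription factor of the granule lineage, averaged 513 ± 116 TPM at day 18 and 420 ± 57.7 TPM at day 11 in the precipitate. Gfap, a filament protein of astrocytes and of radial stem cells, was also abundant there, at 454 ± 72.2 TPM at day 18 and 431 ± 102 TPM at day 11. Rpl22, the tagged protein's gene, stood at 135 to 165 TPM at day 18 and 153 to 202 TPM at day 11, and it did not pass the test (adjusted p = 0.482).

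Of 17282 genes tested with limma on log2(TPM + 1), 978 passed an adjusted p of 0.05 (Benjamini-Hochberg, two-sided). Higher at day 18 were 788 genes, or 4.56% of those tested, and lower were 190, or 1.10%. The libraries of the 2 days did not overlap for 1769 genes with higher values at day 18 (10.2%) and for 505 with lower values (2.92%). The differences were small: 36 of the genes called higher and 22 of those called lower differed by more than 2-fold. Of the 17282 genes, 11240 had a difference above 0 and 6036 below. The median difference over all genes was 0.11 on the log2 scale, and rescaling each library by median-of-ratios moved that median to 0.01. It also moved the split, to 473 genes higher (2.74%) and 467 lower (2.70%). Under that scaling 651 of the 978 genes were called again, and every one of the 978 kept its sign. The rescaling moved single genes by little, Grin1 from 0.58 to 0.46 and Top2a from −0.66 to −0.78 on the log2 scale. The kept signs are therefore not a check of direction. The directions below are given on the TPM scale, beside the list's median after rescaling where it matters.

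The day 11 libraries with the letter a stood apart from the others. On the first principal component of the 12 IP libraries, with 26.8% of the variance, running a lay at −49.7 and sedentary a at −42.1, while the other libraries of both days lay between −6.91 and 5.51. In running a, Rpph1, the RNA of ribonuclease P, took 17.4% of all TPM, against 4.58 to 9.16% in the other 7 libraries. Without both letter a libraries 0 genes passed in limma, with a smallest adjusted p of 0.0718, while 2545 had an unadjusted p below 0.05 and 880 would by chance. These were 1532 with higher values (8.70%) and 1013 with lower values (5.75%). The called genes were selected in a fit that shares every other library, so their agreement without letter a is not an independent check. All 788 genes called higher and all 190 called lower kept their sign without the letter a libraries. Their median difference was then 0.46 and −0.61, against 0.56 and −0.63 with all libraries. Each single library also moved the number of calls. It was 131 without sedentary a, 347 without running a, 557 without sedentary b and 2679 without running b of day 11. It was 392 without sedentary c, 409 without running c, 280 without sedentary d and 246 without running d of day 18. The adjusted p-values below come from all libraries, and the value without letter a stands beside the main ones. They treat the libraries as independent, and 310 genes were called when the letter was a random replicate block.

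The GC content of the transcripts moved with the days as well. Genes called higher had a median GC content of 55.8% and genes called lower 43.9%, against 49.5% for genes not called. Transcript length differed too, with medians of 3816, 1976 and 3164 bases in that order. The histone, ribosomal protein and voltage-gated channel lists described below had median lengths of 579, 1100 and 7242 bases, against 3187 for all genes tested. Across genes within a library, the deviation from the mean level correlated with GC content at r = 0.02 to 0.17 in the 4 libraries of day 18 and at r = −0.23 to −0.18 in the 4 of day 11, with no overlap. With log2 transcript length the same deviation correlated at r = −0.02 to 0.10 at day 18 and −0.16 to 0.11 at day 11, with overlap. These are correlations over genes, which are not independent replicates. After a smooth GC trend was taken out of each library, 148 genes were called higher (0.921%) and 99 lower (0.616%) of 16068 with a known GC content. The part of GC content in the differences of single genes was otherwise not tested, and that of length was not tested.

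**Figure D1:**
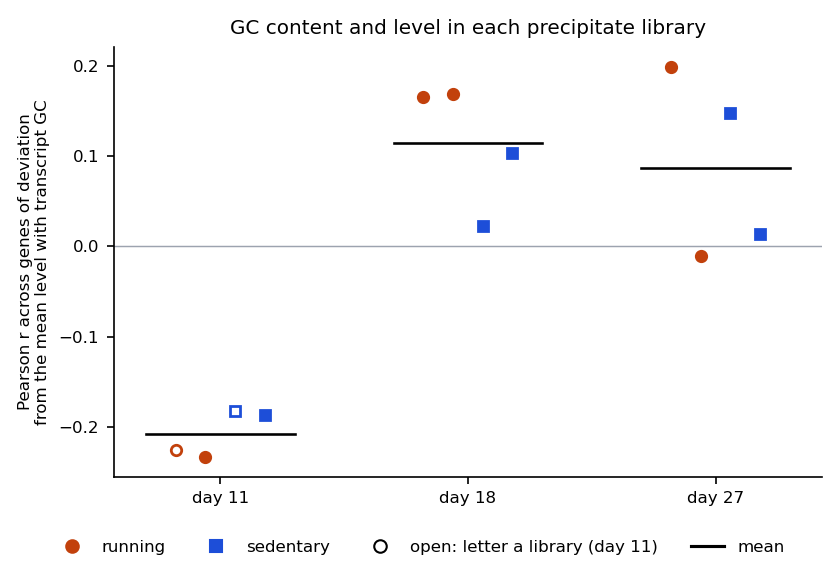
Pearson correlation, across genes, between transcript GC content and a gene's deviation from its mean log2(TPM + 1), for each of the 12 precipitate libraries by day. Points are libraries (circles running, squares sedentary, open the letter a libraries) and bars are means. The 4 libraries of day 11 lie between −0.23 and −0.18, and the 4 of day 18 between 0.02 and 0.17.

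Genes of dividing cells were lower at day 18. Of 26 mitosis genes tested, 7 fell and 0 rose, and 24 had a difference below 0. Among all 17282 genes 1.10% were called lower and 6036 had a difference below 0. The median of the list was −0.47 on the log2 scale, against 0.11 for all genes. It was −0.40 without the letter a libraries (all genes −0.0017), −0.58 after median-of-ratios scaling (all genes 0.01) and −0.42 after the GC trend was removed (all genes 0.01). In bulk RNA, fewer cells of a type and less RNA per cell cannot be told apart. Top2a, the topoisomerase that untangles replicated DNA, stood at 70.6 and 55.9 TPM in running and 44.7 and 33.9 TPM in sedentary libraries of day 18, against 76.5 and 95.3 TPM in running and 82.7 and 64.5 TPM in sedentary libraries of day 11. The gene lies on the minus strand of GRCm38 chromosome 11, at 98992943 to 99024189. Its log2 difference was −0.66 ± 0.14 (SE, limma adjusted p = 0.0149), and −0.65 without the letter a libraries. The highest library of day 18, running c, lay above the lowest of day 11, sedentary b, so the groups overlapped. Tpx2, a spindle assembly factor, stood at 40.7 and 39.0 TPM in running and 23.3 and 24.1 TPM in sedentary libraries of day 18, against 38.5 to 54.3 TPM at day 11 (log2 difference −0.60 ± 0.13, adjusted p = 0.0184). For Top2a and Tpx2 the running libraries of day 18 were the higher ones of that day. Birc5, an inhibitor of cell death that is also part of the chromosomal passenger complex, had the opposite order, with 10.3 and 10.1 TPM in running and 13.8 and 14.6 TPM in sedentary libraries of day 18. It stood at 14.7 to 23.1 TPM at day 11, and the days did not overlap. Mki67, the gene of the proliferation marker Ki-67, averaged 15.9 ± 3.18 TPM at day 18 and 27.0 ± 6.46 TPM at day 11 (adjusted p = 0.0299). The other genes of the list that fell were Cenpf, a kinetochore protein, Kif11, a spindle motor, and Ect2, which acts in cytokinesis. All 7 had an unadjusted p below 0.05 without the letter a libraries, and 3 of them, Birc5, Top2a and Tpx2, were called after the GC trend was removed.

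Promoters of several of these genes are shown because mitosis genes are known to share CCAAT boxes and the cell cycle element TTTGAA (CHR) near their starts. The 4 below run 5′ to 3′ in the direction of the gene, from 250 bases before to 50 after the annotated start (RefSeq, GRCm38.p6). Capitals mark a CCAAT box, a TTTGAA element, or the E2F letters TTTGGCGC and also TTTCCCGC, searched on either strand. A box on the other strand therefore reads ATTGG, an element there reads TTCAAA, and no marked pair overlaps.
Top2a, chr11:99024140-99024439, minus strand: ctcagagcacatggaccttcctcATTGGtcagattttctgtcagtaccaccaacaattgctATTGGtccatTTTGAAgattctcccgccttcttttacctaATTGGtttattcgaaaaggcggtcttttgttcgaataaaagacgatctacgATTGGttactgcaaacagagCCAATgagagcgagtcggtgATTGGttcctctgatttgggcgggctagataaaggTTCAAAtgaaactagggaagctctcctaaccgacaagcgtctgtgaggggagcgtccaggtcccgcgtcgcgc
Cenpf, chr1:189688037-189688336, minus strand: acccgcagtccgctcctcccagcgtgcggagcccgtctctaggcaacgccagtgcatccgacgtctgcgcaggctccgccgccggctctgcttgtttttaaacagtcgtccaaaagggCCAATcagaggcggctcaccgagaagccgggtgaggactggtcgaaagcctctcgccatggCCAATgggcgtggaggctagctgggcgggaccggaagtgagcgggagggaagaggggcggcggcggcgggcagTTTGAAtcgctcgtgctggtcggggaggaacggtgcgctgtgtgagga
Mki67, chr7:135716330-135716629, minus strand: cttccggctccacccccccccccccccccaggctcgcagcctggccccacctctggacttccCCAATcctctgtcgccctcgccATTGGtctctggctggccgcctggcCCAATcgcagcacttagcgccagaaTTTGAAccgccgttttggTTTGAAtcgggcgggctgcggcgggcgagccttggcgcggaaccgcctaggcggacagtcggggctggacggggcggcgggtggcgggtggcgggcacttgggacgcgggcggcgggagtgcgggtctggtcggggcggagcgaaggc
Kif11, chr19:37376132-37376431, plus strand: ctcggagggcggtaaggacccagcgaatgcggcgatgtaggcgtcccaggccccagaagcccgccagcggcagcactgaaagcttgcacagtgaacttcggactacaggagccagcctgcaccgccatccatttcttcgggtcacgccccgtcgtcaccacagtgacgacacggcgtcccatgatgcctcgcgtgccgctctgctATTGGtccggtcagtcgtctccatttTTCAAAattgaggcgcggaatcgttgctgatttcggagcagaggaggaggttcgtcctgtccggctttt
Top2a has 6 CCAAT and 2 TTTGAA matches, Mki67 has 3 and 2, Cenpf 2 and 1, and Kif11 1 and 1. Of 25 promoters found for 23 of the mitosis genes, 80% hold CCAAT and 80% TTTGAA, and 68% hold both. Among all 32851 promoters of the table, 37.4% hold CCAAT, 17.9% TTTGAA and 6.95% both. The promoter of Birc5 holds none of these letters in the window. Of 26 promoters of 21 DNA replication genes, 61.5% hold CCAAT and 11.5% TTTGAA. The E2F letters are in 30.8% of them, against 1.56% of all promoters. A match is a description of the letters and not a sign that a factor was bound.

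Of 25 DNA replication genes, 1 fell and 0 rose, against 1.10% of all genes called lower, and 21 had a difference below 0. The gene that fell was Mcm6, a subunit of the replicative helicase, at 49.8 to 69.2 TPM at day 18 and 74.5 to 84.9 TPM at day 11, with no overlap (log2 difference −0.47 ± 0.11, limma adjusted p = 0.0266). The median of the list was −0.25, and −0.29 without the letter a libraries. After median-of-ratios scaling it was −0.36 with 4 called lower, and after the GC trend was removed −0.42 with 1 called lower. Prim1, the DNA primase subunit, did not overlap either, at 16.8 to 21.8 TPM at day 18 and 23.3 to 31.8 TPM at day 11, and its adjusted p was 0.0563. Tyms, thymidylate synthase, had the opposite sign, with 676 to 868 TPM at day 18 and 335 to 709 TPM at day 11. Its difference of 0.64 did not pass (adjusted p = 0.0784), and without the letter a libraries it was 0.23.

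Replication-dependent histone genes, whose mRNA is made while DNA is copied, were the list with the most members called lower. Of 62 tested, 13 fell and 0 rose, against 1.10% of all genes called lower. A difference below 0 was found for 55, and the median was −0.52. Without the letter a libraries that median was −0.34, and it was −0.63 after median-of-ratios scaling and −0.65 after the GC trend was removed. These genes had a median GC content of 57.5% and a median transcript length of 579 bases, against 49.8% and 3187 bases for all genes tested. The part of either was not tested. Hist1h2ak, an H2A gene (GRCm38 chromosome 13, 21753435 to 21753827, minus strand), stood at 132 and 105 TPM in running and 104 and 91.4 TPM in sedentary libraries of day 18, against 196 and 201 TPM in running and 209 and 192 TPM in sedentary libraries of day 11. The log2 difference was −0.89 ± 0.14 (limma adjusted p = 0.00661), with a clear gap between the days. Hist1h3c, an H3 gene, stood at 18.2 to 33.1 TPM at day 18 and 35.8 to 68.8 TPM at day 11, again without overlap. Hist1h1c, a linker histone gene, stood at 106 to 141 TPM at day 18 and 168 to 269 TPM at day 11. Linker histone genes made up 4 of the 13 that fell (Hist1h1a, Hist1h1c, Hist1h1d and Hist1h1e). Hist1h3f differed by −0.54 with all libraries and by −0.33 without letter a, where the difference of Hist2h3b was −0.66. Histone genes have near-identical copies, so the share of reads given to each single gene is uncertain.

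**Figure D2:**
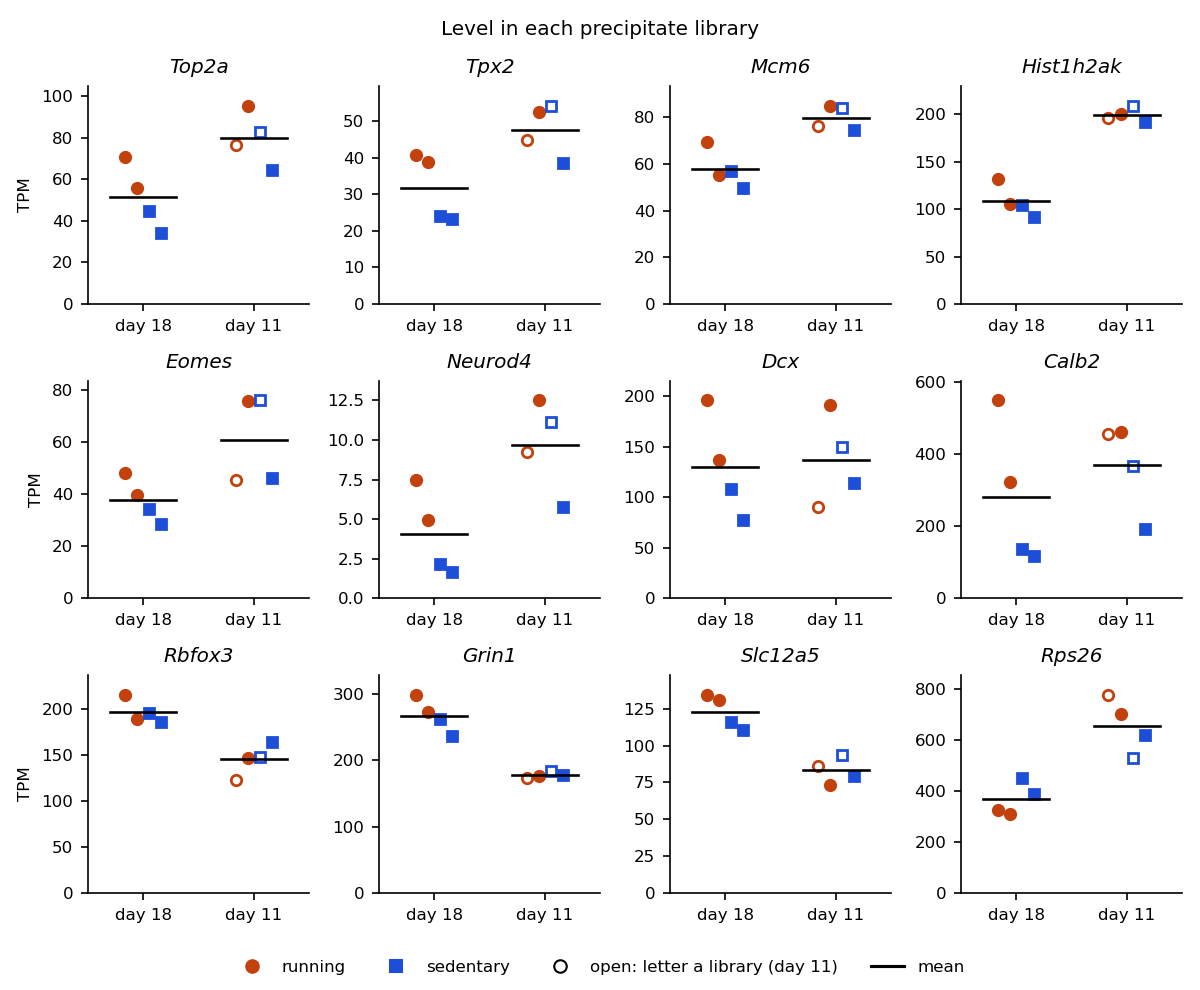
TPM of 12 genes in each of the 8 precipitate libraries, day 18 left and day 11 right in each panel, with axes from 0. Circles are running and squares sedentary libraries, open symbols the letter a libraries and bars the mean of 4. Mcm6, Hist1h2ak, Rbfox3, Grin1, Slc12a5 and Rps26 do not overlap between the days, while Dcx and Calb2 spread over a wide range within each day.

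Genes of intermediate progenitors and neuroblasts differed among themselves. Of 18 tested, 3 fell and 0 rose, against 1.10% of all genes called lower. The list's median was −0.05, or −0.17 without the letter a libraries. Eomes, the transcription factor that defines intermediate progenitors, stood at 48.2 and 39.8 TPM in running and 34.2 and 28.6 TPM in sedentary libraries of day 18. At day 11 it stood at 45.3 and 75.7 TPM in running and 75.9 and 46.3 TPM in sedentary libraries (log2 difference −0.66 ± 0.18, limma adjusted p = 0.0447). Neurod4, a proneural transcription factor, averaged 4.07 ± 2.69 TPM at day 18 and 9.66 ± 2.92 TPM at day 11 (adjusted p = 0.0171). Mfap4, an extracellular matrix gene, stood at 11.7 to 35.7 TPM at day 18 and 24.2 to 54.3 TPM at day 11 (adjusted p = 0.0412). For all 3 genes the libraries of the 2 days overlapped, and running c was the highest library of day 18. Neurod1, which acts downstream in the same series, averaged 263 ± 64.9 TPM at day 18 and 299 ± 48.9 TPM at day 11 and did not pass (adjusted p = 0.488).

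No member of the neural stem cell list passed in either direction, among 16 tested, with 0 at an unadjusted p below 0.05 and a median of −0.04. Without the letter a libraries 3 members were lower and 0 higher at an unadjusted p below 0.05, with a median of −0.19, and the median was −0.16 after median-of-ratios scaling. Nes, the filament gene whose regulatory sequence drives the Cre, stood at 50.2 to 60.2 TPM at day 18 and 38.4 to 63.4 TPM at day 11. Hes5, a Notch target, stood at 16.4 to 26.6 TPM at day 18 and 16.9 to 20.1 TPM at day 11 (adjusted p = 0.236). In the immature neuron list 0 of 21 passed, with 4 genes above and 1 below at an unadjusted p below 0.05 and a median of 0.21. Without the letter a libraries 1 gene was above and 1 below at that p, and the median was 0.13. It was 0.09 after median-of-ratios scaling and 0.01 after the GC trend was removed. Dcx had a difference of −0.10 ± 0.22 on the log2 scale (adjusted p = 0.834), with a range of 77.2 to 196 TPM at day 18 and 90.5 to 192 TPM at day 11. Calb2, the calretinin gene of young granule neurons, showed the widest spread of the named members of this list. It stood at 549 and 324 TPM in running and 138 and 116 TPM in sedentary libraries of day 18, against 457 and 463 TPM in running and 368 and 193 TPM in sedentary libraries of day 11. The day difference of −0.59 ± 0.25 did not pass (adjusted p = 0.179). Neurod2, a neuronal transcription factor, had a difference of 0.46 ± 0.14 (adjusted p = 0.0572).

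Genes of mature granule neurons were higher at day 18. Of 21 tested, 5 rose and 0 fell, against 4.56% of all genes called higher. In the list 19 had a difference above 0, and 11240 of all 17282 genes did. The list's median was 0.30, or 0.25 without the letter a libraries. After median-of-ratios scaling the median was 0.19 and 1 gene of the 5 was still called, and after the GC trend was removed it was 0.16 and 0 were called. Icam5, a dendritic adhesion molecule of forebrain neurons (GRCm38 chromosome 9, 21032073 to 21039036, plus strand), stood at 128 and 127 TPM in running and 135 and 129.7 TPM in sedentary libraries of day 18, against 79.9 and 68.0 TPM in running and 96.0 and 86.7 TPM in sedentary libraries of day 11. The log2 difference was 0.65 ± 0.11 (limma adjusted p = 0.00717), the days did not overlap, and this was the gene that median-of-ratios scaling kept. The synaptic organizer genes C1ql2 and C1ql3 stood at 63.4 to 72.2 and 90.5 to 126 TPM at day 18, against 39.2 to 54.7 and 69.7 to 90.1 TPM at day 11. Rbfox3, the gene of the neuronal marker NeuN, averaged 197 ± 13.3 TPM at day 18 and 145 ± 16.7 TPM at day 11 (adjusted p = 0.0333). Plk5 stood at 15.2 to 27.7 TPM at day 18 and 9.40 to 19.8 TPM at day 11. Calb1, the calbindin gene of mature granule neurons, did not pass, at 75.2 to 101 TPM at day 18 and 87.1 to 110 TPM at day 11 (adjusted p = 0.552).

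Voltage-gated ion channel genes held the most calls in the upward direction, in which 4.56% of all genes were called. Of 44 tested, 14 rose and 0 fell (unadjusted p without the letter a libraries at most 0.0494 for each), with a median of 0.32, or 0.22 without those libraries. Median-of-ratios scaling left 8 of them called with a list median of 0.20, and removing the GC trend left 2 with the same median. The calcium channel genes Cacna1a, Cacna1b, Cacna1e, Cacna1g and Cacna1h were among the 14. Cacna1h, a low-threshold channel (GRCm38 chromosome 17, 25374285 to 25433783, minus strand), stood at 69.0 and 62.7 TPM in running and 65.5 and 59.7 TPM in sedentary libraries of day 18, against 34.9 and 44.9 TPM in running and 47.6 and 49.7 TPM in sedentary libraries of day 11. Its log2 difference was 0.54 ± 0.11 (limma adjusted p = 0.0129), and the groups did not overlap. Kcnh3, an ether-à-go-go family potassium channel, stood at 30.9 to 34.7 TPM at day 18 and 18.5 to 25.2 TPM at day 11 (adjusted p = 0.0144), and it did not pass after median-of-ratios scaling (adjusted p = 0.0565). Kcnc4 differed by 0.51 with all libraries and by 0.25 without letter a. Also called were Kcna6, Kcnab2, Kcnd3, Kcnh1 and the sodium channel subunit Scn2b.

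On the postsynaptic side 6 of 38 genes rose and 0 fell, against 4.56% of all genes called higher, and the list's median was 0.23. That median was 0.14 without the letter a libraries, 0.13 after median-of-ratios scaling and 0.15 after the GC trend was removed. Grin1, the obligatory NMDA receptor subunit, stood at 299 and 273 TPM in running and 262 and 236 TPM in sedentary libraries of day 18, against 173 and 177 TPM in running and 185 and 177 TPM in sedentary libraries of day 11 (log2 difference 0.58 ± 0.11, limma adjusted p = 0.00909). The 4 libraries of day 11 were close together and all below day 18. Grin2b, the NMDA subunit that prevails early in development, stood at 261 to 296 TPM at day 18 and 141 to 223 TPM at day 11 (adjusted p = 0.0169). Grm2, a group II metabotropic receptor, stood at 62.5 to 98.1 TPM at day 18 and 40.7 to 50.4 TPM at day 11 (adjusted p = 0.00532), and Nlgn3, a postsynaptic adhesion molecule, at 99.4 to 142 TPM at day 18 and 65.2 to 91.0 TPM at day 11. Grik5 also rose. Median-of-ratios scaling called 5 and GC trend removal 4 of the list.

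In the presynaptic list 3 of 30 rose, namely Syt7, a calcium sensor, Sv2a, a vesicle glycoprotein, and Syn3, a synapsin, and 0 fell. Over all genes 4.56% were called higher. Median-of-ratios scaling called 2 of the list higher and 1 lower, and GC trend removal called 1 higher. Syt7 stood at 191 to 225 TPM at day 18 and 117 to 165 TPM at day 11 (limma adjusted p = 0.0127). Among 18 genes of GABA receptors and chloride transport, Slc12a5 rose, and 0 fell. This share is near the 4.56% of all genes called higher. The list's median was 0.02, with 9 genes above and 9 below 0. Median-of-ratios scaling called 0 of the list higher and 2 lower. Slc12a5 encodes the chloride exporter KCC2, whose appearance is known to accompany the switch of GABA responses in maturing neurons. It stood at 134 and 131 TPM in running and 116 and 111 TPM in sedentary libraries of day 18, against 86.1 and 73.3 TPM in running and 93.9 and 79.4 TPM in sedentary libraries of day 11. Its log2 difference was 0.56 ± 0.11 (adjusted p = 0.0109) and 0.68 without the letter a libraries, but its adjusted p was 0.0771 after median-of-ratios scaling. The receptor subunit gene Gabra2 had a difference of −0.49 and did not pass (adjusted p = 0.0795).

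Of 43 axon guidance and adhesion genes, 6 rose and 0 fell, against 4.56% of all genes called higher, and the list's median was 0.22. That median was 0.09 without the letter a libraries, 0.11 after median-of-ratios scaling and 0.12 after the GC trend was removed. The genes that rose were the ephrin genes Efna3 and Efnb3, the ephrin receptor gene Epha5 and the semaphorin receptor gene Nrp2. The roundabout family gene Robo3 and the Slit ligand gene Slit3 rose as well. Slit3 stood at 94.6 to 121 TPM at day 18 and 65.2 to 91.2 TPM at day 11 (log2 difference 0.52 ± 0.11, limma adjusted p = 0.0145). Without the letter a libraries the log2 differences of Efnb3 and Nrp2 were 0.36 and 0.28, against 0.55 and 0.44. Under median-of-ratios scaling 2 of the list were called higher and 1 lower. Among 32 genes of microtubules and growth cones 2 rose, Map6, which stabilizes microtubules, and the tubulin gene Tubb2a, and 0 fell. This share is near the 4.56% of all genes called higher, and 1 member was called after median-of-ratios scaling. Map6 stood at 116 to 164 TPM at day 18 and 73.6 to 91.2 TPM at day 11 (adjusted p = 0.00609). Tubb2a was highest in the running libraries of day 18, at 998 and 698 TPM, with 481 and 414 TPM in the sedentary ones and 334 to 422 TPM at day 11.

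Other signalling lists held few calls, with shares near the 4.56% of all genes called higher. In the list of Notch, Wnt and BMP pathways, with 34 tested, the BMP antagonist gene Chrd and the ligand gene Wnt7a rose, and 0 fell. Wnt7a stood at 12.5 to 16.8 TPM at day 18 and 6.22 to 11.0 TPM at day 11 (limma adjusted p = 0.0250). Of 20 immediate early genes Egr3 rose and 0 fell. Egr3, an activity-induced transcription factor, stood at 76.7 and 57.9 TPM in running and 58.7 and 54.6 TPM in sedentary libraries of day 18, against 34.6 and 33.3 TPM in running and 38.5 and 35.7 TPM in sedentary libraries of day 11. Its log2 difference was 0.78 ± 0.11 (adjusted p = 0.00532), and 0.82 without the letter a libraries. Egr1 and Arc of the same list had differences of 0.48 and 0.42 and did not pass (adjusted p = 0.0668 and 0.0864). No gene of the circadian clock (15), heat shock and stress (17), fatty acid oxidation (17) or cholesterol synthesis (16) lists passed in limma, with 3, 3, 3 and 3 of them at an unadjusted p below 0.05. After median-of-ratios scaling, and after GC trend removal, 1 fatty acid oxidation gene was called lower, namely Cpt2.

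Ribosomal protein genes were lower at day 18. Of 83 tested, 11 fell and 0 rose, against 1.10% of all genes called lower, and 74 had a difference below 0. The list's median was −0.31, or −0.32 without the letter a libraries and −0.43 after median-of-ratios scaling. For 32 of these genes all 4 libraries of day 18 lay below all 4 of day 11, as for 2.92% of all genes. Rps26 (GRCm38 chromosome 10, 128624534 to 128626747, minus strand) stood at 324 and 310 TPM in running and 452 and 388 TPM in sedentary libraries of day 18, against 778 and 701 TPM in running and 531 and 619 TPM in sedentary libraries of day 11 (log2 difference −0.83 ± 0.14, limma adjusted p = 0.00661). In both days the running and sedentary libraries of Rps26 formed separate pairs, with running lower at day 18 and higher at day 11. Rpl22l1, the paralog of the tagged protein's gene, stood at 30.5 to 50.4 TPM at day 18 and 53.1 to 78.6 TPM at day 11 (adjusted p = 0.00661). Rps27a, which encodes a ubiquitin fusion, stood at 328 to 410 TPM at day 18 and 560 to 573 TPM at day 11. Ribosomal protein genes have many processed copies in the genome, and how the counting shared such reads is not given in the sources used here. In the input the list's mean level was also lower at day 18, at 7.80 ± 0.10 against 8.03 ± 0.22 at day 11 on the log2(TPM + 1) scale (SD, n = 4 each). That input was lower for other lists too, such as translation factors (6.90 against 7.33) and presynapse (7.18 against 7.41). It was higher for others, such as mitosis (2.70 against 1.89) and olfactory receptors (2.63 against 0.66). The part of such input shifts was not tested.

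Among 82 nuclear-encoded subunits and helpers of the respiratory chain, 6 fell and 1 rose, against 1.10% and 4.56% of all genes. The list's median was −0.11, or −0.07 without the letter a libraries. Of the 6 that fell, 2 were called after the GC trend was removed. In the input, where unrelated lists were lower at day 18 too, the list's mean log2(TPM + 1) was 6.53 ± 0.06 at day 18 and 6.83 ± 0.18 at day 11. In the precipitate it was 6.16 ± 0.09 at day 18 and 6.30 ± 0.08 at day 11 (SD, n = 4 each). Cox6c, a subunit of cytochrome c oxidase, stood at 425 to 559 TPM at day 18 and 754 to 1417 TPM at day 11 (log2 difference −1.01 ± 0.21, limma adjusted p = 0.0159). The complex I genes Ndufb6, Ndufc2, Ndufs4 and Ndufv2 and the ATP synthase gene Atp5j also fell. Atp5sl, which despite its name is an assembly factor of complex I, rose (adjusted p = 0.0347). Of 20 glycolysis genes 2 rose, Eno2, the neuronal enolase, and Pfkp, a phosphofructokinase, and 0 fell, where 4.56% of all genes were called higher. Eno2 stood at 137 to 168 TPM at day 18 and 106 to 124 TPM at day 11, but neither gene was called after median-of-ratios scaling (adjusted p = 0.120 for Eno2 and 0.203 for Pfkp) or after the GC trend was removed. Among 26 translation factor genes Eif4ebp2, a repressor of cap-dependent initiation that prevails in brain, rose (adjusted p = 0.0373), and 0 fell. This share is below the 4.56% of all genes called higher, and the gene was not called after the GC trend was removed.

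**Figure D3:**
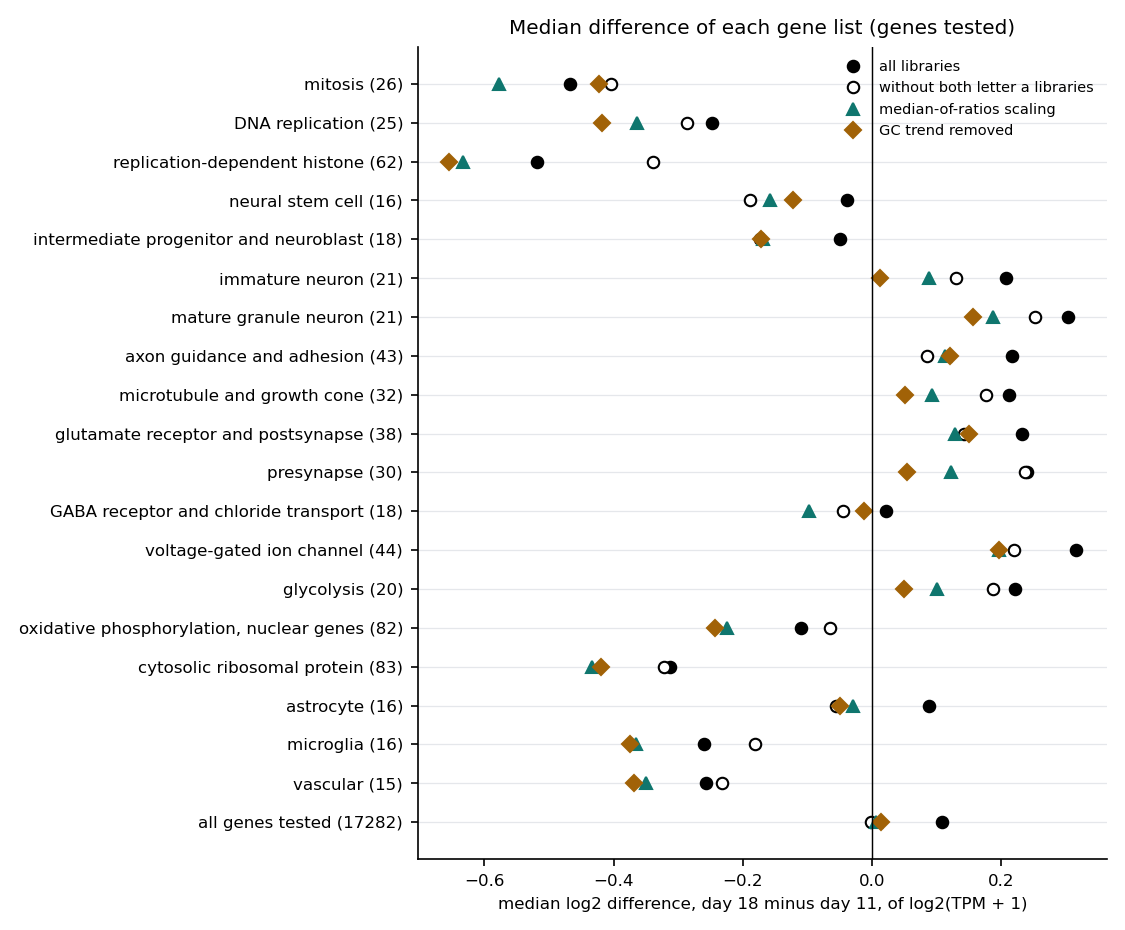
Median log2 difference, day 18 minus day 11, of 19 gene lists and of all genes tested, with the number of genes tested in brackets. Filled circles use all libraries, open circles leave out both letter a libraries, triangles use median-of-ratios scaling and diamonds have the GC trend removed. Below 0 in all 4 versions lie the mitosis, DNA replication, histone, ribosomal protein, neural stem cell, intermediate progenitor, respiratory chain, microglia and vascular lists. Mature granule neuron, voltage-gated channel and synaptic lists lie above 0. The GABA list and the astrocyte list change sign.

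Markers of other cells were measured beside these lists. The mean log2(TPM + 1) of 12 lists of other cell types and of RNA quality was compared between the days by two-sided exact permutation tests of 4 against 4 libraries, and none passed (p = 0.114 to 0.743, smallest possible p = 0.0286). Microglia markers summed to 177 to 265 TPM at day 18 and 233 to 291 TPM at day 11, and vascular markers to 96.3 to 134 TPM at day 18 and 116 to 168 TPM at day 11. No marker in either list was at 0 in any of the 8 libraries. In limma 0 of 16 microglia and 0 of 15 vascular genes passed, with 1 and 4 at an unadjusted p below 0.05. Yet 13 of the 16 and 13 of the 15 had a difference below 0. The medians of the microglia and vascular lists were both −0.26, near the −0.25 of the DNA replication list. Without the letter a libraries they were −0.18 and −0.23, and after median-of-ratios scaling −0.37 and −0.35. Astrocyte markers summed to 4464 to 6275 TPM at day 18 and 3315 to 5615 TPM at day 11, and 0 of 16 passed, with 1 at an unadjusted p below 0.05. Also 0 of 15 oligodendrocyte genes, 0 of 12 genes of oligodendrocyte precursors and 0 of 8 genes of choroid plexus and ependyma passed, with 2, 2 and 1 at an unadjusted p below 0.05. Where 1.10% of all genes were called lower, 1 of 16 interneuron genes fell and 0 rose. This was Pvalb, a calcium-binding protein gene, which fell to 1.30 to 3.38 TPM at day 18, against 3.46 to 5.42 TPM at day 11 (adjusted p = 0.0431). In the list of 14 genes for CA pyramidal and mossy cells 1 was lower and 0 were higher. This was Pcp4, a marker of pyramidal neurons of area CA2 that is also found in granule neurons, which fell to 134 to 245 TPM at day 18, against 280 to 404 TPM at day 11 (adjusted p = 0.0494). The sums over this list, Pcp4 included, were 422 to 499 TPM at day 18 and 562 to 650 TPM at day 11, without overlap, and 1 marker was at 0 in 1 library of day 18. Of 3 blood genes Alas2, an enzyme of haem synthesis, rose (adjusted p = 0.0474), with a log2 difference of 0.79, or 0.50 without the letter a libraries. Its days overlapped, and it did not pass in limma after median-of-ratios scaling (adjusted p = 0.066) or GC trend removal (adjusted p = 0.13). The sums over the 3 genes went the other way, at 85.9 to 143 TPM at day 18 and 118 to 213 TPM at day 11, with overlap. The haemoglobin gene Hba-a2 was listed at 0 in all 4 libraries of day 18 and in 2 of day 11, with reads possibly shared with Hba-a1. The olfactory receptor list, a measure of background because these receptors belong to the nose, averaged 1.08 ± 0.122 TPM at day 18 and 0.944 ± 0.380 TPM at day 11 (mean ± SD over 4 libraries), and 2 of 195 genes rose and 0 fell. Of 28 small nucleolar RNAs Snora16a fell and 0 rose. The shares over all genes were 4.56% called higher and 1.10% called lower.

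Of 11 RNAs that stay in the nucleus 3 rose and 0 fell, against 4.56% of all genes called higher. Miat stood at 245 to 361 TPM at day 18 and 142 to 267 TPM at day 11 (limma adjusted p = 0.0127), Meg3 at 632 to 848 TPM at day 18 and 478 to 581 TPM at day 11, and Neat1 at 31.8 to 56.1 TPM at day 18 and 18.6 to 40.7 TPM at day 11. Without the letter a libraries the log2 difference of Neat1 was 0.41 against 0.67. The mean level of the list was 9.10 ± 0.31 at day 18 and 8.88 ± 0.15 at day 11 on the log2(TPM + 1) scale (exact permutation p = 0.286). Its mean in TPM, which the most abundant members dominate, was 9471 ± 2223 TPM in the precipitate of day 18, against 11660 ± 4744 TPM in that of day 11 (mean ± SD over 4 libraries). The higher mean of day 11 rests on running a, at 18768 TPM, where Rpph1 took 17.4% of all TPM. The other libraries of day 11 stood at 9140 to 9462 TPM, within the 7208 to 12446 TPM of day 18. RNAs that stay in the nucleus are not translated, so presence in the precipitate is not by itself a sign of ribosome binding. Their part in the other differences was not tested.

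The largest differences were spread over many functions. Among genes past the threshold, with at least 5 TPM in the higher day and no overlap, the rule named 12 in each direction. Xkrx, an XK-related membrane protein gene (GRCm38 chromosome X, 134149043 to 134162076, minus strand), had the largest difference upward. It stood at 128 and 154 TPM in running and 234 and 102 TPM in sedentary libraries of day 18, against 62.3 and 73.0 TPM in running and 36.7 and 55.5 TPM in sedentary libraries of day 11 (log2 difference 1.40 ± 0.30, limma adjusted p = 0.0350). Pik3r5, a regulatory subunit of the phosphoinositide 3-kinase gamma, stood at 27.7 to 30.5 TPM at day 18 and 8.28 to 14.2 TPM at day 11 (1.30 ± 0.16, adjusted p = 0.00405). Cers1, the ceramide synthase of neurons, had a narrow range, 49.5 to 52.7 TPM at day 18 and 20.8 to 32.1 TPM at day 11 (0.95 ± 0.11, adjusted p = 0.00224). Lrrc26, an auxiliary subunit of BK potassium channels, Npff, the neuropeptide FF precursor, Runx3 and Msx2, transcription factors, Mrgpre, a Mas-related receptor, Muc6, a mucin, and Lurap1, Sp110 and Tmem54 were the others. Lrrc26 ends at position 25291180 of chromosome 2 and the 3′ end of Grin1 lies beside it at 25291181 on the other strand. Whether the counting used strand is not stated, so reads of this pair may be shared. Without the letter a libraries the difference of Sp110 was 0.54 against 1.02, and that of Mrgpre 0.63 against 0.98. The input changed as well for several of these genes. Xkrx averaged 577 ± 288 TPM in the input of day 18 and 203 ± 92.1 TPM in that of day 11, a log2 difference of 1.40 (limma adjusted p = 0.00362), and its difference of changes was −0.0041. Pik3r5, Runx3, Sp110, Msx2, Muc6 and Mrgpre also rose in the input, by 1.76, 2.35, 2.89, 2.07, 1.38 and 1.28. The changes of Runx3, Sp110 and Msx2 were more positive in the input than in the precipitate (difference of changes −1.32, −1.87 and −1.14, adjusted p = 0.00177, 0.00831 and 0.00816). Npff and Lurap1 had a more positive change in the precipitate (1.35 and 1.13, adjusted p = 0.0103 and 0.00301), and Lrrc26, Tmem54 and Cers1 did not pass in the input or in that test.

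Downward, the largest difference was that of Lsm5, a subunit of the ring that binds U6 small nuclear RNA (GRCm38 chromosome 6, 56701063 to 56704710, minus strand). It stood at 20.6 and 17.3 TPM in running and 27.6 and 10.7 TPM in sedentary libraries of day 18, against 84.3 and 49.3 TPM in running and 59.0 and 40.4 TPM in sedentary libraries of day 11 (log2 difference −1.58 ± 0.28, limma adjusted p = 0.0140). Tmsb4x, the actin-binding thymosin beta-4, stood at 263 to 461 TPM at day 18 and 625 to 871 TPM at day 11 (−1.13 ± 0.15, adjusted p = 0.00516). Dgkb, a diacylglycerol kinase of neurons, stood at 259 to 381 TPM at day 18 and 630 to 717 TPM at day 11 (−1.05 ± 0.15, adjusted p = 0.00532). Reads named Cdr1 stood at 1806 to 2181 TPM at day 18 and 3803 to 5192 TPM at day 11 (−1.17 ± 0.15, adjusted p = 0.00405). That gene lies antisense to another transcript, and the strand setting is not given, so the pair cannot be told apart. Cenph, a kinetochore protein, and Shcbp1, which acts in cytokinesis, stood at 1.27 to 4.82 and 2.67 to 5.32 TPM at day 18, against 6.47 to 9.24 and 8.26 to 10.4 TPM at day 11. Crip1, a LIM domain protein, was listed at 0 in sedentary d and reached 3.66 TPM in the other libraries of day 18, against 3.96 to 8.38 TPM at day 11. The small nucleolar RNA Snora16a, the detoxifying enzyme gene Mgst1, the H2A gene Hist1h2ao, the lipocalin gene Apod and the Mediator subunit gene Med21 completed the list. Hist1h2ao differed by −1.13 with all libraries and by −0.70 without letter a. In the input Snora16a and Hist1h2ao also fell (adjusted p = 0.0314 and 0.0141), the histone gene by 2.39 on the log2 scale, and Shcbp1 rose (0.80, adjusted p = 0.00376). Lsm5 did not pass in the input (−0.23, adjusted p = 0.470), and its difference of changes was −1.35 (adjusted p = 0.00742).

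**Figure D4:**
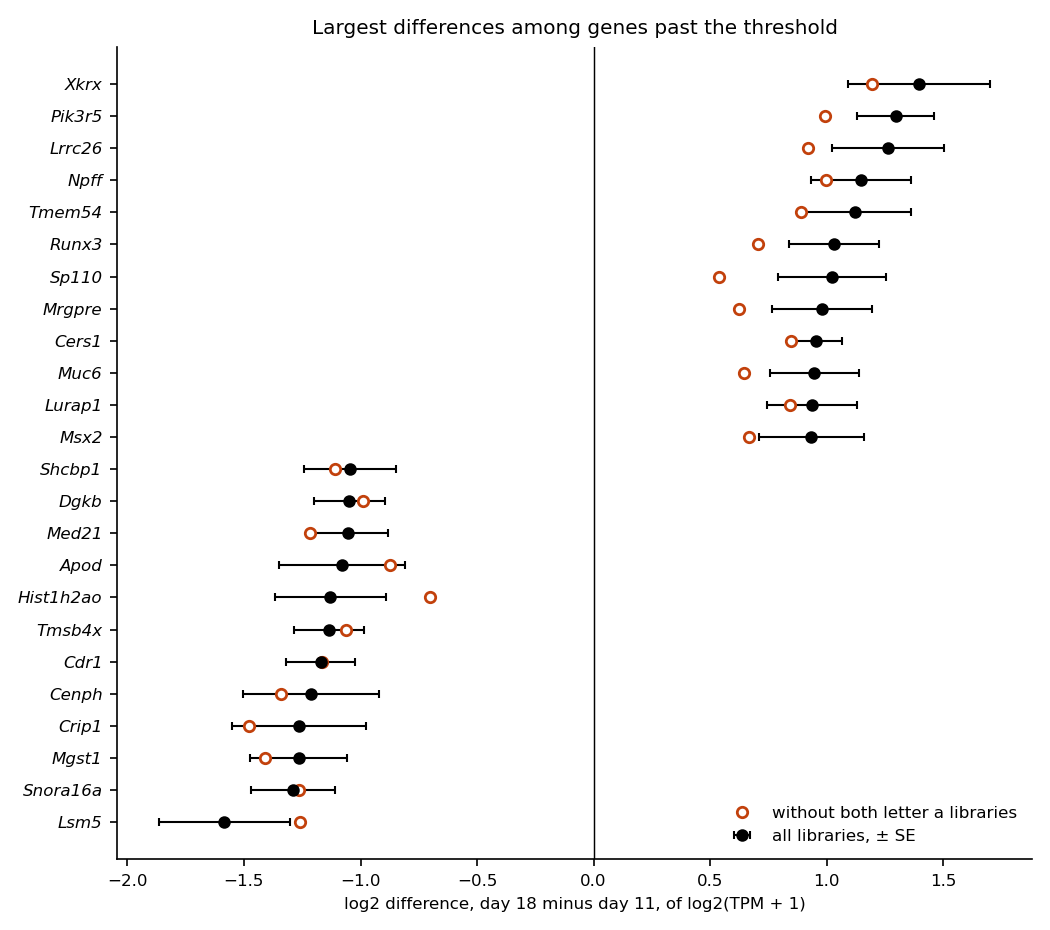
Log2 difference, day 18 minus day 11, of the 12 largest named differences in each direction. Filled points with bars are the estimate ± SE from all libraries, and open points the estimate without both letter a libraries. All 24 keep their side of 0, which the rule that named them required. Xkrx lies at 1.40 and 1.20 and Lsm5 at −1.58 and −1.26.

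Running and sedentary mice were also compared in how they changed between the days. No gene passed the test of that difference in limma, with 669 of 17282 at an unadjusted p below 0.05 where chance gives 864, and a smallest adjusted p of 0.659. Within running libraries 333 genes were called, and within sedentary libraries 2, but the test of the difference itself gave none. Top2a differed by −0.44 in running and by −0.89 in sedentary libraries (difference of the 2 changes 0.45 ± 0.27, adjusted p = 0.998). Dcx differed by 0.31 in running and −0.51 in sedentary libraries (0.82 ± 0.43, adjusted p = 0.998). The named gene with the lowest p was the histone gene Hist1h2bm, at 73.3 and 65.5 TPM in running and 23.7 and 21.9 TPM in sedentary libraries of day 18, against 42.4 and 65.1 TPM in running and 99.7 and 59.6 TPM in sedentary libraries of day 11 (unadjusted p = 5.22e-04, adjusted p = 0.998). Nenf, Fam71f2, Foxq1 and Dynlt1b followed, with adjusted p-values of 0.998 as well.

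The day difference of the precipitate was set against that of the input in all 24 libraries. This fit treated precipitate and input libraries of the same letter and activity as independent, and no setting paired them. Of 19507 genes tested, 2300 had a more positive difference in the precipitate (11.8%) and 4868 a more negative one (25.0%). The olfactory receptor list averaged 7.36 ± 2.09 TPM in the input of day 18 and 1.09 ± 0.999 TPM in that of day 11 (SD, n = 4 each), so the input itself differed between the days in a measure of background. With a mean TPM of at least 5 required, the split was 1910 more positive and 894 more negative of 12793. Mki67 averaged 9.22 ± 1.53 TPM in the input of day 18 and 3.91 ± 0.601 TPM in that of day 11, against the opposite order in the precipitate (difference of the 2 changes −1.76 ± 0.25, limma adjusted p = 3.38e-04). The mean of the mitosis list was 8.68 ± 1.69 TPM in the input of day 18 and 3.38 ± 0.596 TPM in that of day 11. Top2a did not pass in the input (log2 difference 0.14, adjusted p = 0.497), and its difference of changes was −0.80 ± 0.22 (adjusted p = 0.00898). Rbfox3 had a lower mean in the input at day 18, 185 ± 18.0 TPM against 222 ± 18.0 TPM at day 11, and its difference of changes was 0.71 ± 0.15 (adjusted p = 0.00226). Zfp773, Ckap2l, Synj2bp and Olfr761 were among the 5 genes with the lowest p, and all 5 were higher in the input of day 18. Zfp773 averaged 99.0 ± 13.2 TPM in the input of day 18 and 11.2 ± 9.49 TPM in that of day 11, with 12.5 to 14.6 TPM in the precipitate of day 18 and 7.43 to 13.4 TPM in that of day 11. The part of this background in the single differences was not tested.

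The levels at day 27 were set beside those of days 11 and 18 as a description. The mitosis list stood at a mean level of 4.16 ± 0.17 at day 11, 3.74 ± 0.23 at day 18 and 3.35 ± 0.09 at day 27 on the log2(TPM + 1) scale (SD, n = 4 libraries each). The histone list stood at 5.68 ± 0.17, 5.22 ± 0.14 and 4.90 ± 0.07 in the same order. The mature granule neuron list stood at 6.71 ± 0.10 at day 11, 6.99 ± 0.02 at day 18 and 7.36 ± 0.16 at day 27, with no overlap between neighbouring days. Voltage-gated channel genes stood at 5.32 ± 0.15, 5.58 ± 0.06 and 5.74 ± 0.10. The ribosomal protein list stood at 7.97 ± 0.08 at day 11, 7.69 ± 0.08 at day 18 and 7.60 ± 0.24 at day 27, where days 18 and 27 overlapped.

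**Figure D5:**
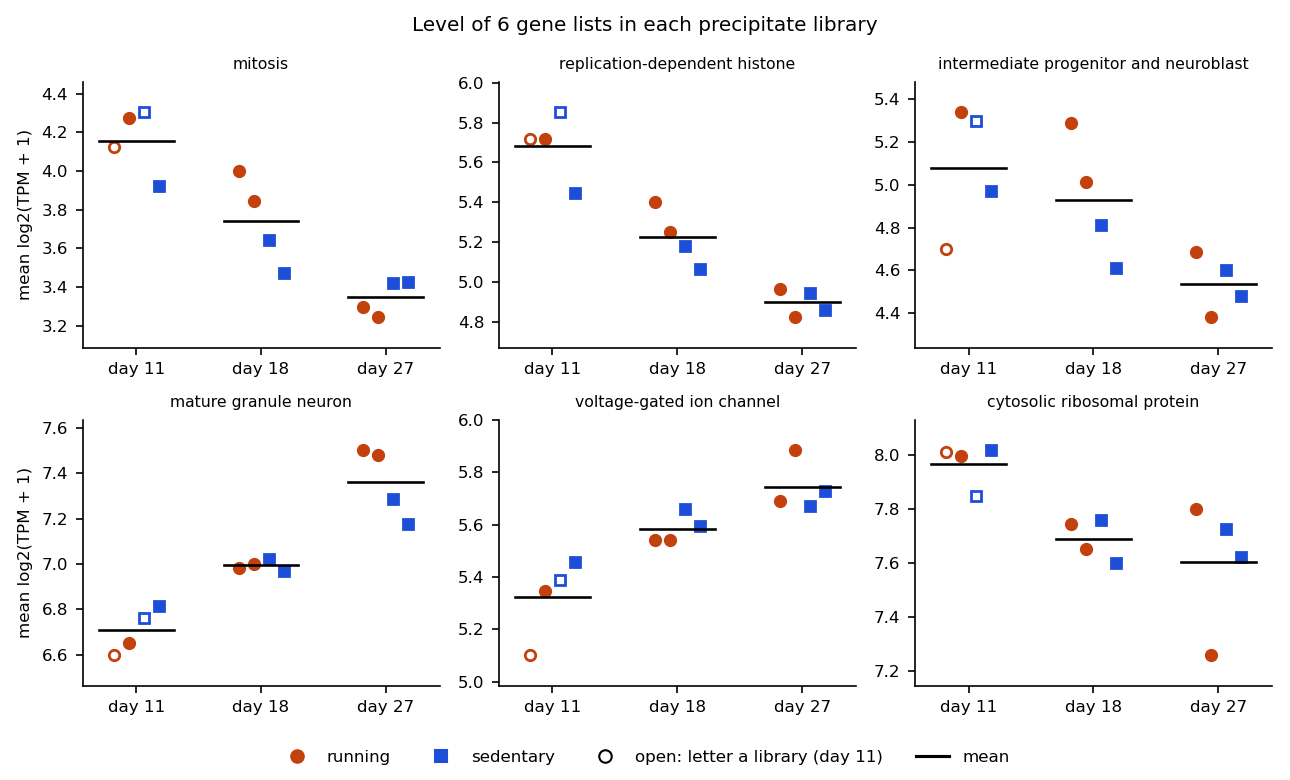
Mean log2(TPM + 1) of 6 gene lists in each of the 12 precipitate libraries at days 11, 18 and 27. Circles are running, squares sedentary and open symbols the letter a libraries, and bars are the mean of 4. Mitosis averages 4.16, 3.74 and 3.35 and mature granule neuron genes 6.71, 6.99 and 7.36 over the 3 days, and the axes do not start at 0.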

How the data were processed

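The authors deposited 1 table of TPM (transcript abundance scaled to the same sum in every library) for 23306 genes in 24 libraries, and each column sums to 1000000. RSEM and the build mm10 are named in the submitters' processing notes. Its version, the aligner, the annotation and whether strand was used are not stated in the labels. Per the labels' protocols the libraries were made with a stranded total RNA kit. TPM keeps no read depth, so depth is unknown and precision rests on the spread between libraries. Coordinates and GC content came from GENCODE M21 (GRCm38), which held 21661 of the gene names. The 27 names turned into dates were not named.

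The 12 IP libraries were fitted with limma 3.58.1 under R 4.3.3 (lmFit, eBayes with a trended and robust prior) as log2(TPM + 1), in 6 groups of activity and day, as the mean of the day 18 groups minus that of the day 11 groups. Differences of low genes are understated on this scale. A mean of at least 1 TPM was required, with Benjamini-Hochberg adjustment and a threshold of 0.05. The scripts were tested on simulated data. The members of 35 gene lists, the lists themselves and the tests were chosen with earlier results of these data known. Named genes were the 12 largest differences per direction (called, at least 5 TPM in the higher day, no overlap, same sign without letter a, no provisional names), up to 4 members of each list with the lowest p, 11 markers named in any case, and 5 genes of lowest p for each test of a difference. Other members called were named after their values were seen. Some genes that this rule or the lists hold are not reported here. Alternatives changed the pseudocount (0.1), the filter, the scaling, the spread model and the libraries. The replicate letters differ between days and do not pair the days.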

Additional observations from a re-analysis of the deposited data

Results flagged for a closer look

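Within the 4 libraries of a day, 10 of 176 sets of values held a library whose gap to its nearest neighbour was large for the range of the set, where chance alone gives about 8.8. At day 18, Sp110 stood at 104.4 TPM in running d, against 81.1 to 82.7 TPM in the other 3 libraries of that day. Med21 stood at 9.69 TPM in sedentary d, against 15.5 to 16.3 TPM. Epha5 stood at 120 TPM in sedentary c, against 103 to 105 TPM. Meg3 stood at 632 TPM in running c, against 822 to 848 TPM. The median TPM of the tested genes was 21.4 in sedentary c and 19.5 to 19.8 in the others.

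At day 11, Tubb2a stood at 334 TPM in sedentary b, against 413 to 422 TPM in the other 3 libraries. Nlgn3 stood at 65.2 TPM in running a, against 87.4 to 91.0 TPM. Pvalb stood at 3.46 TPM in sedentary a, against 5.10 to 5.42 TPM. Rpl14 stood at 728 TPM in running a, against 518 to 534 TPM. Rpph1 took 17.4% of the TPM of running a and 5.96 to 7.003% of the others. Of these 5 sets, 4 single out a letter a library.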

How the results depend on the processing

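The day comparison called 978 genes, and it called 961 at a pseudocount of 0.1, 688 with no filter, 1342 at a mean TPM of at least 5, 940 with median-of-ratios scaling, 817 in the 8 libraries alone, 763 with library weights and 904 with the olfactory receptor level as a covariate. It called 5 without trend and robust in the spread model, 2 in sedentary and 333 in running libraries alone, and 0 without both letter a libraries. Leaving out single libraries gave 131 to 2679. Removing the GC trend gave 247, and leaving out both libraries of letter b, c or d gave 2203, 145 and 7. These 4 settings were chosen after the data were seen. The cause of these shifts was not tested. With 1 library left in a day 11 or day 18 group, that library is assumed to vary like the other groups. The largest named differences were also chosen to keep their sign without letter a. All settings share libraries with the main fit, so signs kept under them are not an independent check. Of 83 named genes that were called, 0 reversed under any of these settings, and 83 lost their call without letter a (adjusted p 0.0718 to 0.379), 81 without letter d, 53 without letter c, 10 without letter b, 80 without trend and robust, 81 in sedentary and 54 in running libraries alone, 40 with the letter block, 36 after GC removal and 16 after median-of-ratios scaling.

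Same-letter libraries correlated at 0.237, 0.0465 and 0.0714 on days 11, 18 and 27, and the letters do not pair the days. The correlation within a letter that the block fit used was 0.266. Because letters do not cross days, such a correlation makes the adjusted p-values of the main fit too small. With the letter as a random replicate block 310 genes were called. The difference between running and sedentary changes called 0 genes, 1 at a pseudocount of 0.1, 3 with the letter as a fixed replicate block, and 0 to 4 without single libraries. The difference between precipitate and input called 7168, 2804 at a mean TPM of at least 5, and 5705 to 6984 without single libraries. The olfactory receptor level differed by 0.05 on the log2 scale, by −0.0372 to 0.132 without single libraries (lowest without sedentary a of day 11, exact permutation p = 0.771) and by −0.11 without both letter a libraries (exact permutation p = 0.267). Unknown depth limits what can be said of genes near the minimum of 1 TPM.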

Other observations

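Gene families outside the lists were counted by symbol, and these families were chosen after values were seen. For comparison, 11240 of all 17282 genes tested had a difference above 0 and 6036 below, and 4.56% were called higher. All 56 clustered protocadherin genes tested, cell surface adhesion molecules that give neurons an individual surface identity, had a higher value at day 18, with 6 called higher (Pcdha5, Pcdha7, Pcdha11, Pcdhb12, Pcdhga9 and Pcdhga12) and 0 lower. Their median difference was 0.43 on the log2 scale, 0.26 without the letter a libraries, 0.32 after median-of-ratios scaling and 0.34 after the GC trend was removed. Clustered protocadherin genes share exons within a cluster, so the share of reads given to each is uncertain. Of 85 potassium channel genes named Kcn, 14 were called higher and 0 lower, and 69 had a difference above 0, with a median of 0.27. That median was 0.11 without the letter a libraries, 0.16 after median-of-ratios scaling and 0.10 after the GC trend was removed.

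Several families of small housekeeping proteins had medians below 0. Of 24 Sm and LSm genes, which form the cores of small nuclear ribonucleoproteins, 17 had a difference below 0 and Lsm5 and Snrpg were called lower, with a median of −0.11. Of 38 proteasome subunit genes 26 had a difference below 0 and Psmc6 was called, with a median of −0.08. Of 76 mitochondrial ribosomal protein genes 44 had a difference below 0, 4 were called lower and 1 higher, with a median of −0.03. Of 17 centromere protein genes named Cenp, 2 were called lower (Cenpf and Cenph) and 1 higher (Cenpb), with a median of −0.22. Of 346 zinc finger genes named Zfp, 15 were called higher and 12 lower, with 207 above and 139 below 0. The median of the Zfp genes was 0.06, and −0.06 without the letter a libraries and −0.05 after median-of-ratios scaling. Over all 17282 genes 4.56% were called higher and 1.10% lower, with 11240 above and 6036 below 0.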
